A study of Mus musculus with 4 samples.

Results

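Genes that act in G2 and mitosis were followed in T cells isolated from mouse tumours by RNA sequencing. The set was a fixed list of 55 genes, chosen by name for their roles as mitotic kinases, checkpoint proteins, centromere and kinetochore proteins, condensins and other G2/M factors. Earlier results of these data were known when the list was chosen. All 55 were found among the 21146 genes of the deposited table. The cells came from C57BL/6 mice on day 21 after a tumour was inoculated. In the control group the mice were wild type, with 2 libraries. In the other group the mice were labelled HPK1-/-, a knockout of Map4k1, also with 2 libraries. No treatment was given in the labels for either group, and the sources used here do not give the tumour, the knockout allele, the age of the mice or the gate used to isolate the T cells. The labels do not say that a genotype's libraries are separate animals, so the p-values reflect how much these particular libraries varied, and that variation may be technical.

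Cells duplicate their DNA in S phase and divide it in mitosis, and the genes for the division machinery are transcribed mainly in G2 and early mitosis. The kinase CDK1 with cyclin B starts mitosis, Aurora and Polo-like kinases build the spindle, condensins compact the chromosomes and kinetochores tie them to microtubules. The spindle checkpoint holds the anaphase-promoting complex back until every chromosome is attached. Most of these transcripts are low in resting T cells and rise after antigen drives the cells to divide. HPK1 is a kinase of blood cells that restrains T cell receptor signalling.

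Between 11609 and 11825 genes per library reached 1 FPKM (a fragment count divided by transcript length and by library size). The spacing of low values put the 4 libraries at about 19900000 to 23400000 fragments, a scale on which 1 fragment in a 2-kb gene was worth 0.0246 to 0.0289 FPKM. All 55 mitotic genes were at or above 5.10 FPKM in every library, well above that step. Map4k1 was at 48.9 and 41.1 FPKM in wild-type cells, against 20.6 and 26.5 FPKM in knockout cells, so its transcript was lower but still present in the libraries labelled knockout. Its log2 fold change was -0.91 (SE 0.15, limma adjusted p = 0.0134), and the adjusted p was 0.0634 without knockout library 1. T cell genes were high in all 4 libraries, with Cd3e at 142 to 153 FPKM and Cd8a at 184 to 212 FPKM.

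Nearly all of the mitotic genes were higher in the knockout libraries. Of the 55, 51 rose, 0 fell and 4 did not pass, at an adjusted p under 0.05 in limma. By the same rule 15.4% of the 11947 tested genes were higher and 13.0% were lower. Both knockout libraries lay above both wild-type libraries for 54 of the 55 genes, against 38.6% of all tested genes, and below both for 0, against 31.4%. The median log2 fold change of the mitotic genes was 0.67, against 0.04 for all tested genes, on the log2(FPKM + 1) scale. Before any adjustment, 52 of the mitotic genes had limma p under 0.05, as did 5157 of all 11947 tested genes. No single gene can go below p = 0.333 in an exact permutation test of 2 against 2, so each call rests on limma's sharing of the spread across genes.

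The sizes of these differences varied from gene to gene. In 37 of the 55 genes the mean FPKM was at least 1.5-fold higher in the knockout, where 9.87% of tested genes were, and in 5 it was at least 2-fold higher, where 2.32% were. The ratio of means ran from 1.01 for Pttg1 to 2.70 for Mki67. The SD of the log2 fold changes was 0.26 among the mitotic genes and 0.54 among all tested genes. Levels differed far more between genes than between genotypes, with wild-type means from 5.12 FPKM for Cdc25c to 854 FPKM for Tuba1b. Across the 55 genes, the wild-type level and the log2 fold change had Pearson's r = -0.15 and Spearman's rho = -0.17, values that describe genes of the same libraries and not independent samples.

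The summed level of the 55 genes was 3865 and 3676 FPKM in the wild-type libraries and 5841 and 5789 FPKM in the knockout libraries. Without Tuba1b, which supplied 24.6% of the sum in wild-type library 1, it was 2915 and 2917 FPKM against 4611 and 4632 FPKM. The libraries of a genotype were close to each other and the genotypes did not overlap. In bulk RNA a larger share of dividing cells and more transcript per dividing cell cannot be told apart.

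**Figure D1:**
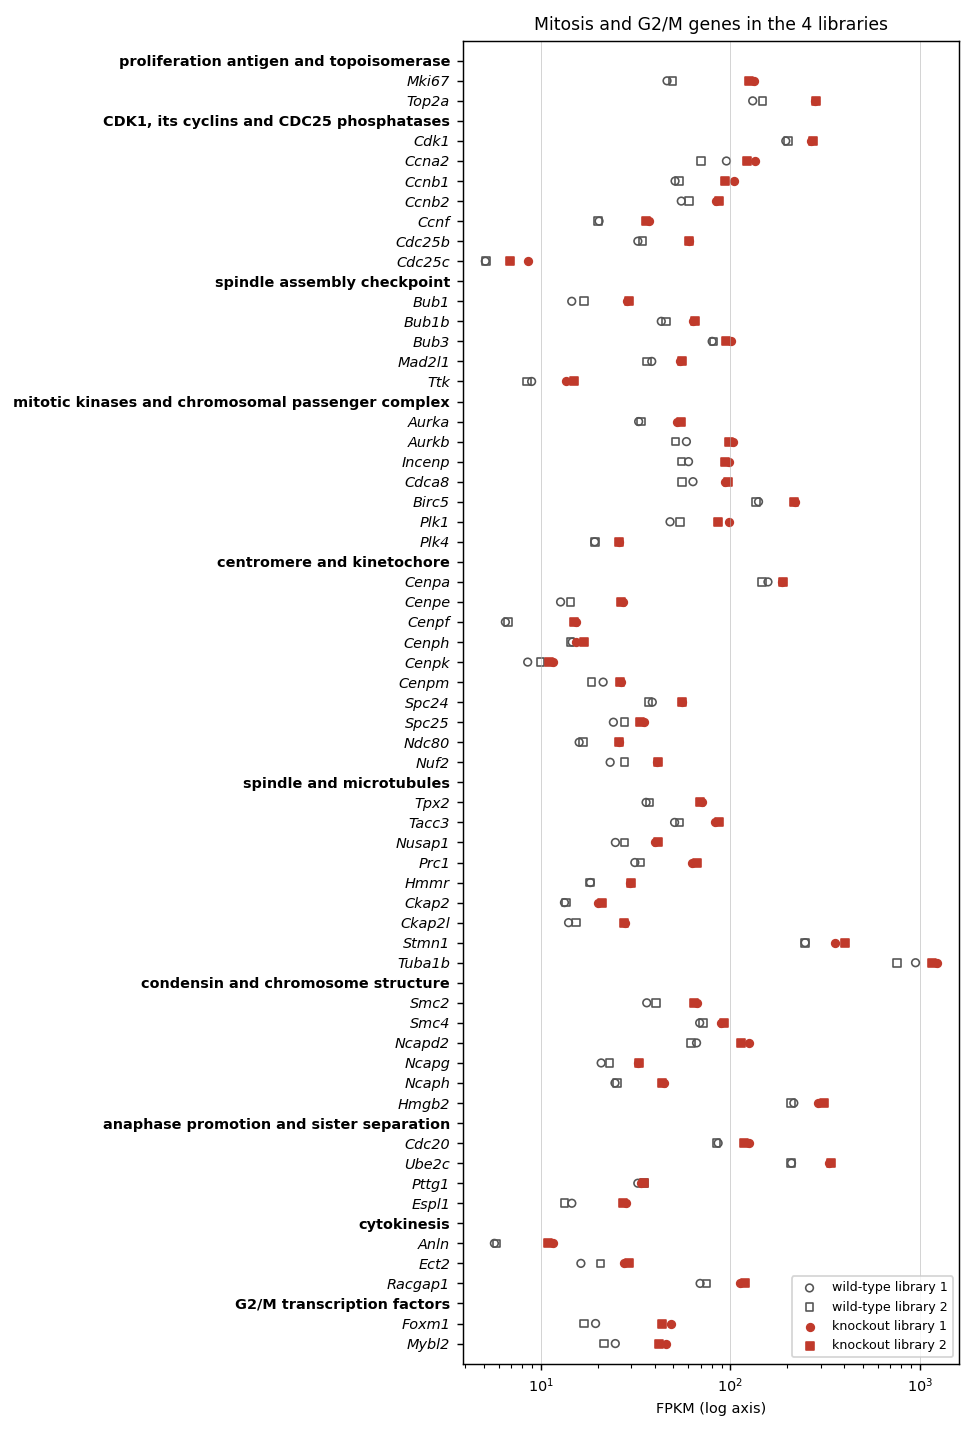
FPKM of each of the 55 genes in each library, on a log axis, grouped by role; open grey symbols are wild-type libraries and filled red symbols knockout libraries, with circles for library 1 and squares for library 2. The red symbols lie to the right of the grey ones for every gene but Pttg1, where the 4 values mix.

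The proliferation antigen and the topoisomerase gene had some of the largest differences. Mki67, which encodes the chromosome surface protein Ki-67 used to mark dividing cells, was at 46.4 and 49.5 FPKM in wild-type cells, against 133 and 126 FPKM in knockout cells. This was the largest rise of the 55, a log2 fold change of 1.42 ± 0.08 (SE), with adjusted p = 0.00114. Top2a, whose enzyme untangles sister DNA, was at 131 and 148 FPKM against 280.4 and 282.0 FPKM, a log2 fold change of 1.01 ± 0.09 (SE), with adjusted p = 0.00318. Both calls held with any single library left out.

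The transcription factor genes of the G2/M programme were also among the genes that rose most. Foxm1 encodes a forkhead factor that drives late cell cycle genes, and it was at 19.5 and 17.0 FPKM in wild-type cells, against 48.7 and 43.4 FPKM in knockout cells. Its log2 fold change of 1.29 ± 0.11 (SE), with adjusted p = 0.00313, ranked second of the 55. Mybl2, which encodes the B-MYB factor that acts with it, was at 24.7 and 21.5 FPKM against 45.9 and 42.2 FPKM (0.90 ± 0.10 SE in log2 units, adjusted p = 0.00629). Both calls held with any single library left out.

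All 7 genes of the CDK1 engine rose. Cdk1, the catalytic kinase, was at 196 and 202 FPKM in wild-type cells, against 266 and 272 FPKM in knockout cells, a rise of 0.43 on the log2 scale (SE 0.07, adjusted p = 0.0133). Its partner Ccnb1, the gene for cyclin B1, rose from 51.1 and 53.8 FPKM to 104 and 94.2 FPKM (0.91 ± 0.09 SE in log2 units, adjusted p = 0.0043). Ccnb2, the gene for cyclin B2, was at 55.1 and 60.6 FPKM against 84.2 and 87.0 FPKM (log2 fold change 0.56, SE 0.08). The wild-type levels of the 2 cyclin B genes were therefore similar, and no test was made of the difference between their rises. Cdc25b, a phosphatase gene that activates CDK1, was at 32.5 and 34.3 FPKM against 60.8 and 60.6 FPKM (0.84 ± 0.08 SE in log2 units, adjusted p = 0.00389).

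The second phosphatase gene, Cdc25c, had the lowest level of the 55, at 5.10 and 5.14 FPKM against 8.53 and 6.87 FPKM. Relative to the mean, the knockout libraries differed from each other more for it than for any other of the 55 (coefficient of variation 15.2%), and its call (adjusted p = 0.0431) was lost whichever of the 4 libraries was left out, at an adjusted p of up to 0.249. Ccna2, the gene for cyclin A2, was at 95.4 and 70.2 FPKM against 135 and 122 FPKM. Its wild-type libraries had the widest spread of the set relative to the mean (coefficient of variation 21.5%). Ccnf, the gene for the F-box protein cyclin F, was at 20.3 and 20.1 FPKM against 37.2 and 35.8 FPKM. Without knockout library 1 or without knockout library 2 the calls of Cdk1, Ccna2 and Ccnb2 were lost, with adjusted p from 0.0753 to 0.160.

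Of the 5 spindle checkpoint genes, 4 rose and Bub3 did not pass. Bub1, a checkpoint kinase gene, was at 14.6 and 16.9 FPKM in wild-type cells, against 28.4 and 29.1 FPKM in knockout cells (0.83 ± 0.10 SE in log2 units, adjusted p = 0.00709). Ttk, which encodes the kinase MPS1, was at 8.95 and 8.46 FPKM against 13.5 and 14.9 FPKM. Bub1b, the gene for BUBR1, and Mad2l1, the gene for MAD2, had log2 fold changes of 0.53 and 0.55. Bub3, whose WD-repeat protein docks BUB1 and BUBR1 at kinetochores, was at 80.2 and 81.5 FPKM against 100.5 and 94.5 FPKM. Its knockout values were higher in both libraries but the difference missed the threshold (0.27 ± 0.08 SE in log2 units, adjusted p = 0.0525); it passed at an adjusted p under 0.05 when only genes with at least 5 FPKM were tested and when libraries were scaled to equal totals. The calls of Bub1b, Mad2l1 and Ttk were lost without either knockout library, the adjusted p then running from 0.0645 to 0.0825, and that of Bub1 was at the threshold without knockout library 1.

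All 7 genes of the mitotic kinases and the chromosomal passenger complex rose. Plk1, the Polo-like kinase gene of mitotic entry and exit, was at 48.1 and 54.1 FPKM in wild-type cells, against 99.0 and 86.5 FPKM in knockout cells (0.85 ± 0.11 SE in log2 units, adjusted p = 0.00717). Aurkb, the kinase gene of the passenger complex, was at 58.7 and 51.4 FPKM against 103 and 98.1 FPKM (0.86 ± 0.09 SE in log2 units, adjusted p = 0.00562). The other subunit genes of that complex had log2 fold changes of 0.73 for Incenp, 0.67 for Cdca8 and 0.65 for Birc5. Birc5, the gene for survivin, was the most abundant of the group, at 141 and 137 FPKM against 219 and 216 FPKM. Aurka, the Aurora kinase gene of the spindle poles, was at 32.8 and 33.8 FPKM against 52.4 and 55.1 FPKM. Plk4, the gene for the kinase that duplicates centrioles, had the smallest difference of the group, at 19.2 and 19.3 FPKM against 25.8 and 25.9 FPKM. Only Aurkb of this group passed in every fit with 1 library left out; Aurka, Cdca8 and Plk4 did not pass without either knockout library, and Incenp, Birc5 and Plk1 did not pass without knockout library 1, with adjusted p from 0.0508 to 0.150.

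The centromere and kinetochore group was mixed, with 8 of 10 genes higher and log2 fold changes from 0.15 to 1.09. Cenpf, which encodes a large kinetochore protein of late G2, was at 6.50 and 6.72 FPKM in wild-type cells, against 15.3 and 15.1 FPKM in knockout cells (1.09 ± 0.09 SE in log2 units, adjusted p = 0.0032). Cenpe, the gene for the kinetochore motor CENP-E, was at 12.7 and 14.3 FPKM against 27.2 and 26.4 FPKM. The 4 genes of the NDC80 complex, which grips microtubules, all rose: log2 fold changes were 0.64 for Ndc80, 0.69 for Nuf2, 0.55 for Spc24 and 0.39 for Spc25. Cenpa, the gene for the histone H3 variant that marks centromeres, was the most abundant of the group but rose less, from 158 and 147 FPKM to 188 and 190.4 FPKM (0.31 ± 0.08 SE in log2 units, adjusted p = 0.0366). Cenpm, of the constitutive inner kinetochore, was at 21.3 and 18.5 FPKM against 26.6 and 26.0 FPKM.

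Both genes of this group that did not pass also encode inner kinetochore subunits. Cenph was at 14.6 and 14.3 FPKM in wild-type cells, against 15.4 and 17.0 FPKM in knockout cells (0.15 ± 0.10 SE in log2 units, adjusted p = 0.278). Cenpk was at 8.53 and 9.98 FPKM against 11.6 and 11.1 FPKM (0.27 ± 0.11 SE in log2 units, adjusted p = 0.128). For each, the wild-type and knockout values did not overlap but lay close together. Cenpk passed when libraries were scaled to equal totals. Cenph lies beside Ccnb1 on chromosome 13 (GRCm38, Cenph at 100759674 to 100775899 and Ccnb1 at 100778650 to 100786570, both on the minus strand), and the cyclin gene rose. Cenpe and Cenpf passed with any library left out; the calls of Cenpa, Cenpm and Spc25 were lost without 3 of the 4 libraries, with adjusted p from 0.0604 to 0.21, and those of Spc24, Ndc80 and Nuf2 without either knockout library, the adjusted p then running from 0.0591 to 0.0798.

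Every gene of the spindle and microtubule group rose, 9 of 9. Prc1, whose protein bundles the central spindle, was at 31.3 and 33.6 FPKM in wild-type cells, against 63.1 and 67.0 FPKM in knockout cells (0.98 ± 0.08 SE in log2 units, adjusted p = 0.00318). Tpx2, the gene for the activator of Aurora A, had a log2 fold change of 0.92 ± 0.08 (SE), with adjusted p = 0.0031, with 35.9 and 37.5 FPKM against 71.0 and 69.3 FPKM. Ckap2l, a spindle protein gene, and Tacc3, which stabilises kinetochore fibres, had log2 fold changes of 0.87 and 0.70. Those 4 passed with any single library left out.

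The remaining spindle genes were either less changed or less even. Hmmr, the gene for a spindle pole protein, had nearly equal values within each genotype, 18.3 and 18.2 FPKM against 29.7 and 29.8 FPKM. Nusap1 and Ckap2, both genes for microtubule-binding proteins, had log2 fold changes of 0.62 and 0.57. Stmn1, the gene for stathmin, which destabilises microtubules, was at 248 and 247 FPKM against 357 and 403 FPKM. Tuba1b, an alpha tubulin gene, was the most abundant of the 55, at 949 and 759 FPKM against 1229.8 and 1156 FPKM (0.49 ± 0.13 SE in log2 units, adjusted p = 0.0402). Its relatives have nearly identical coding sequences, so how the authors' processing divided shared reads is uncertain. The calls of these 5 genes were lost without at least 1 knockout library, with adjusted p from 0.0592 to 0.194.

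**Figure D2:**
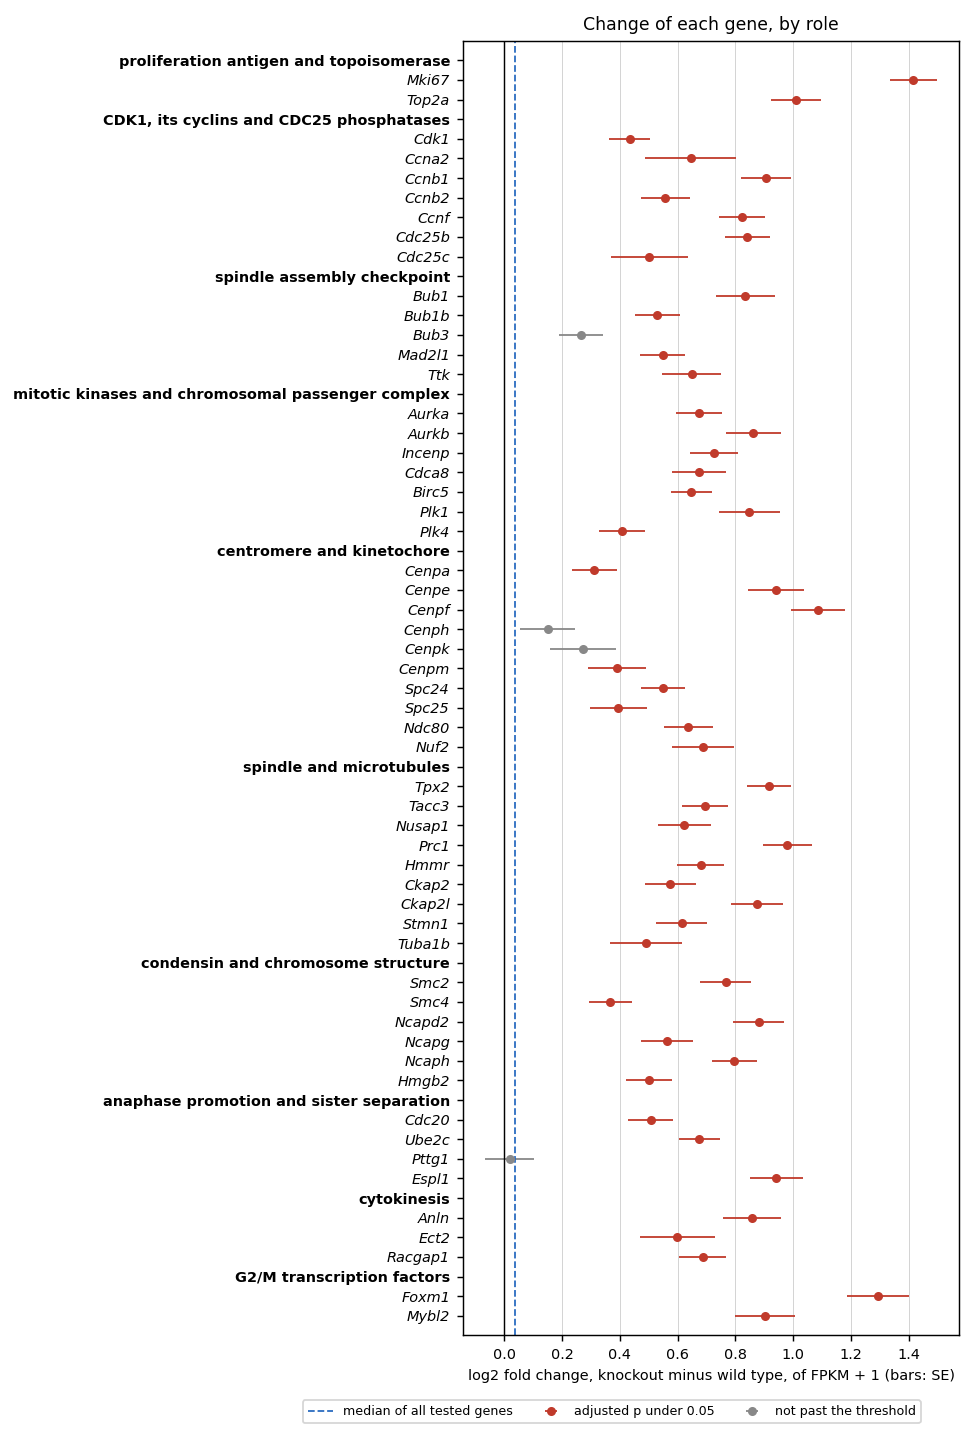
Log2 fold change of FPKM + 1, knockout minus wild type, for each of the 55 genes by role, with SE bars; red points passed an adjusted p under 0.05, grey points did not, and the dashed line is the median of all tested genes at 0.04. Mki67 at 1.42 and Foxm1 at 1.29 stand farthest to the right, and Pttg1 at 0.02 lies beside the dashed line.

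Condensin genes and Hmgb2 rose, 6 of 6. Among the condensin I subunits, Ncapd2 was at 66.4 and 62.1 FPKM in wild-type cells, against 125 and 113 FPKM in knockout cells, a log2 fold change of 0.88 (SE 0.09). Ncaph, the kleisin subunit gene, was at 24.6 and 25.2 FPKM against 44.5 and 43.5 FPKM (0.80 ± 0.08 SE in log2 units, adjusted p = 0.00445), and Ncapg had a log2 fold change of 0.56. The ATPase genes of the complex differed from each other in size, 0.77 for Smc2 and 0.37 for Smc4 on the log2 scale, a difference that was not tested. Smc4 was the more abundant of them, at 68.9 and 71.5 FPKM against 89.4 and 92.1 FPKM. Hmgb2, an abundant DNA-bending protein gene, was at 216 and 209 FPKM against 290.3 and 312 FPKM (0.50 ± 0.08 SE in log2 units, adjusted p = 0.0118). Ncapd2 and Ncaph passed with any library left out; the calls of Smc4, Ncapg and Hmgb2 were lost without either knockout library and that of Smc2 without knockout library 1, with adjusted p from 0.0526 to 0.155.

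Genes of anaphase gave the clearest exception. Espl1, which encodes separase, the protease that opens cohesin, was at 14.6 and 13.4 FPKM in wild-type cells, against 28.3 and 27.1 FPKM in knockout cells (0.94 ± 0.09 SE in log2 units, adjusted p = 0.00442). Pttg1 encodes securin, the inhibitor that holds separase until anaphase. It was at 32.5 and 35.1 FPKM in wild-type cells, against 33.6 and 34.8 FPKM in knockout cells, and its values overlapped, the only such gene of the 55. Its log2 fold change was 0.02 (SE 0.08, adjusted p = 0.887), and the direction turned under quantile normalization, under median-of-ratios scaling and without wild-type library 1 or knockout library 2. Ube2c, the ubiquitin-conjugating enzyme gene of the anaphase-promoting complex, was at 210.3 and 208 FPKM against 330.2 and 339.6 FPKM (0.68 ± 0.07 SE in log2 units, adjusted p = 0.00507). Cdc20, the gene for its activator, rose from 86.2 and 84.6 FPKM to 126 and 118 FPKM, a call lost without either knockout library (adjusted p = 0.104 and 0.0602).

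All 3 cytokinesis genes rose. Racgap1, a subunit gene of centralspindlin, was at 69.3 and 74.8 FPKM in wild-type cells, against 113 and 120 FPKM in knockout cells (0.69 ± 0.08 SE in log2 units, adjusted p = 0.00684). Anln, the gene for the contractile ring scaffold anillin, was at 5.69 and 5.85 FPKM against 11.7 and 10.9 FPKM (0.86 ± 0.10 SE in log2 units, adjusted p = 0.00667). Ect2, the gene for the exchange factor that activates RhoA, was at 16.3 and 20.7 FPKM against 27.6 and 29.0 FPKM. The call of Anln was lost without knockout library 1 (adjusted p = 0.0573) and that of Ect2 without either knockout library (adjusted p = 0.108 and 0.117).

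Promoters of many of these genes hold short sequence elements that the choice of the list did not use. Many late cell cycle promoters are known to carry a CHR element (cell cycle genes homology region), bound by the MuvB complexes with DREAM, B-MYB and FOXM1, and CCAAT boxes bound by NF-Y. RefSeq windows on GRCm38.p6, from 250 bases before to 50 bases after each start, were given for 46 of the 55 genes. CHR was searched as TTTGAA or TTCGAA and the CCAAT box as CCAAT, on both strands, where TTCGAA reads the same on either strand. A CHR match was found for 32 of the 46 (69.6%), against 21.7% of 27025 RefSeq genes with a window. A CCAAT match was found for 34 (73.9%) against 41.1%, and both for 30 (65.2%) against 8.61%. Among tested genes with a window the shares were 16.7% for CHR, 43.5% for CCAAT and 7.21% for both. CCAAT matches were also found for 9 of 14 CDK inhibitor and quiescence genes (64.3%), a list where most genes fell. For anaphase-promoting complex genes it was 5 of 14 (35.7%). Of 40 S phase replication genes with a window, 8 had a CHR match, 25 a CCAAT match and 7 both. Of 54 other mitosis genes with a window, 33 (61.1%) had a CHR match, 34 (63.0%) a CCAAT match and 21 (38.9%) both, so these matches were also common in mitosis genes outside the 55. In 28 of the 32 mitotic genes with a CHR match, the match nearest the start lay within 50 bases of it. Positions were not read for genes outside the 55, so no background share stands beside this count. A match is a description of letters and was not tested as a site.

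Promoter stretches are shown for 5 genes with matches and for Ncaph, which had none in its window and also rose. Each stretch is 150 bases long, 5′ to 3′ on the gene's strand, and ends just before the more upstream of the RefSeq and GENCODE starts; capitals mark CHR and CCAAT matches on either strand.
Mki67, chr7:135716380-135716529, minus strand: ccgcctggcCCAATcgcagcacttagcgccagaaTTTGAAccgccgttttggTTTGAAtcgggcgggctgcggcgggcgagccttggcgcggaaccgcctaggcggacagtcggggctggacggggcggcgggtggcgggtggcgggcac
Top2a, chr11:99024190-99024339, minus strand: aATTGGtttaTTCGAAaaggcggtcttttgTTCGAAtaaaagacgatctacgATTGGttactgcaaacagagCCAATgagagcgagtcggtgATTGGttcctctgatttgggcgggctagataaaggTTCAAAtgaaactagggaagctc
Cdk1, chr10:69352939-69353088, minus strand: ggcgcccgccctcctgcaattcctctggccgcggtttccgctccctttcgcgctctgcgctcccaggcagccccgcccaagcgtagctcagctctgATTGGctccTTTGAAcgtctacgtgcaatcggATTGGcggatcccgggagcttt
Ccnb2, chr9:70421555-70421704, minus strand: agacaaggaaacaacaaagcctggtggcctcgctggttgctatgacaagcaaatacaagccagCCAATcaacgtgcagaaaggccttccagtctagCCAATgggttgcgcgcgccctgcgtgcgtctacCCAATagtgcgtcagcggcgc
Hmgb2, chr8:57511693-57511842, plus strand: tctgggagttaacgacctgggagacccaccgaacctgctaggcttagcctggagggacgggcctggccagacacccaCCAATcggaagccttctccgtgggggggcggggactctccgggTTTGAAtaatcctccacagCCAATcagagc
Ncaph, chr2:127133955-127134104, minus strand: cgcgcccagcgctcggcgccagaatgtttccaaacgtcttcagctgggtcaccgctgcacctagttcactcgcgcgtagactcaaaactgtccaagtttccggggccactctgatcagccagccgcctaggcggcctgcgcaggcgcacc

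Most genes rose whether or not their window held these matches. The 30 genes with both matches had a median log2 fold change of 0.67, and 29 of them passed; Bub3 did not. The 10 genes with neither match had a median of 0.63, and 9 passed; Pttg1 did not. Of the 4 with a CCAAT match alone, Ccnb1 and Cenpe passed and Cenph and Cenpk did not, and both with a CHR match alone, Ndc80 and Anln, passed. These groups were not compared by a test. For 8 of the 46 genes, Pttg1 and Bub3 among them, the RefSeq start lay more than 100 bases from the GENCODE start, so their windows may miss the start that these cells use.

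Other genes of mitosis, taken from a separate list of 68 with no member in common, were higher to a similar degree. That list was also chosen with earlier results of these data known. Of the 68 genes, 54 rose and 1 fell, with a median log2 fold change of 0.66. Over all tested genes 15.4% were higher and 13.0% were lower, with a median of 0.04. The kinetochore gene Dsn1 was at 11.2 and 11.4 FPKM in wild-type cells, against 24.3 and 27.1 FPKM in knockout cells. Kif11, the gene for the motor that separates spindle poles, was at 26.6 and 28.2 FPKM against 53.2 and 53.3 FPKM, and Kif4, a chromosome-bound motor gene, and Lmnb1, the gene for lamin B1, had log2 fold changes of 0.97 and 0.75. The gene that fell was Psrc1, a spindle protein gene (-0.52 ± 0.09 SE in log2 units, adjusted p = 0.014, and up to 0.112 without a knockout library). Fewer of the 68 passed when either knockout library was left out, as was so over all tested genes.

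Genes of the anaphase-promoting complex and of cohesin were less uniform. Of 15 anaphase-promoting complex genes, 3 rose, 1 fell and 11 did not pass, with a median log2 fold change of 0.15. Among all tested genes, 15.4% were higher and 13.0% were lower. Anapc13 fell, from 79.9 and 85.1 FPKM to 52.4 and 53.3 FPKM, and Anapc5, Cdc23 and Anapc1 rose by 0.51, 0.53 and 0.51 on the log2 scale; these 4 calls were lost without knockout library 1, with adjusted p up to 0.146. Cohesin, which holds sister chromatids together, had 8 of 12 genes higher and a median of 0.57. Its ring genes Smc3 and Smc1a were at 21.1 and 22.5 against 39.8 and 39.1 FPKM and at 45.9 and 52.7 against 90.9 and 83.5 FPKM. Esco2 and Pds5b, which regulate the ring, rose by 0.66 and 0.62, and of these 4 genes Smc3 alone passed without knockout library 1. Fewer of the cohesin genes passed when either knockout library was left out, as was so over all tested genes.

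Of 10 genes for CDK1 inhibitory kinases and mitotic exit phosphatases, 3 rose and 0 fell, with a median of 0.06, where 15.4% of all tested genes were higher. These were Wee1 and Pkmyt1, whose kinases restrain CDK1, and Mastl, whose kinase protects its substrates; Wee1 was at 9.04 and 8.17 FPKM against 12.8 and 12.1 FPKM. Each of these calls was lost in 3 of the 4 fits that left a library out, where the adjusted p reached 0.17. Of 12 genes of the DREAM and MuvB complexes, which bind CHR elements, 5 rose and 0 fell, with a median of 0.29: the dimerisation partner gene Tfdp1 was at 114 and 125 FPKM against 217 and 196 FPKM. Rbl1, the gene for p107, and the MuvB genes Lin9 and Lin54 had log2 fold changes of 0.58, 0.47 and 0.52, and none of the 4 passed without knockout library 1, with adjusted p up to 0.216.

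Beside earlier cell cycle phases, the mitotic genes resembled S phase genes in their count and median. Of 50 replication genes 46 rose and 0 fell (49 had non-overlapping higher values), with a median log2 fold change of 0.74. E2f8, an E2F factor gene, was at 10.7 and 10.3 FPKM against 24.7 and 24.7 FPKM, and Rrm2, a ribonucleotide reductase gene, was at 154 and 155 FPKM against 264 and 274 FPKM. The helicase genes Mcm3 and Mcm6 had log2 fold changes of 1.00 and 0.90. Of 11 tested G1 genes, 3 rose and 1 fell, with a median of 0.26. The shares of all tested genes were 15.4% higher and 13.0% lower. Cdk2, Ccne1 and Cdc25a rose by 0.57, 0.51 and 0.53, and Ccnd2, the gene for cyclin D2, fell from 193 and 187 FPKM to 136 and 119 FPKM; all 4 calls were lost without either knockout library, the adjusted p then running up to 0.104.

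Of 14 tested CDK inhibitor and quiescence genes, 9 fell, 1 rose and 4 did not pass, where 13.0% of all tested genes were lower. The median log2 fold change of the list was -0.45. Those that did not pass were Tob1, Klf2, Foxo1 and Foxo3, with log2 fold changes of -0.41, -0.11, -0.06 and -0.10. Cdkn1a, the gene for p21, fell from 424 and 396 FPKM to 201 and 209 FPKM (-0.99 ± 0.08 SE in log2 units, adjusted p = 0.00263). Cdkn2a, the gene for p16 and p19ARF, fell from 175 and 154 FPKM to 46.4 and 45.8 FPKM, and its neighbour Cdkn2b, the gene for p15, fell from 53.9 and 45.7 FPKM to 14.4 and 15.1 FPKM. Btg1, an antiproliferative gene, fell from 50.8 and 52.4 FPKM to 13.8 and 14.9 FPKM. These 4 calls held with any single library left out. The member that rose was Cdkn2c, the gene for p18 (0.48 ± 0.10 SE in log2 units, adjusted p = 0.024, and up to 0.146 without a knockout library).

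**Figure D3:**
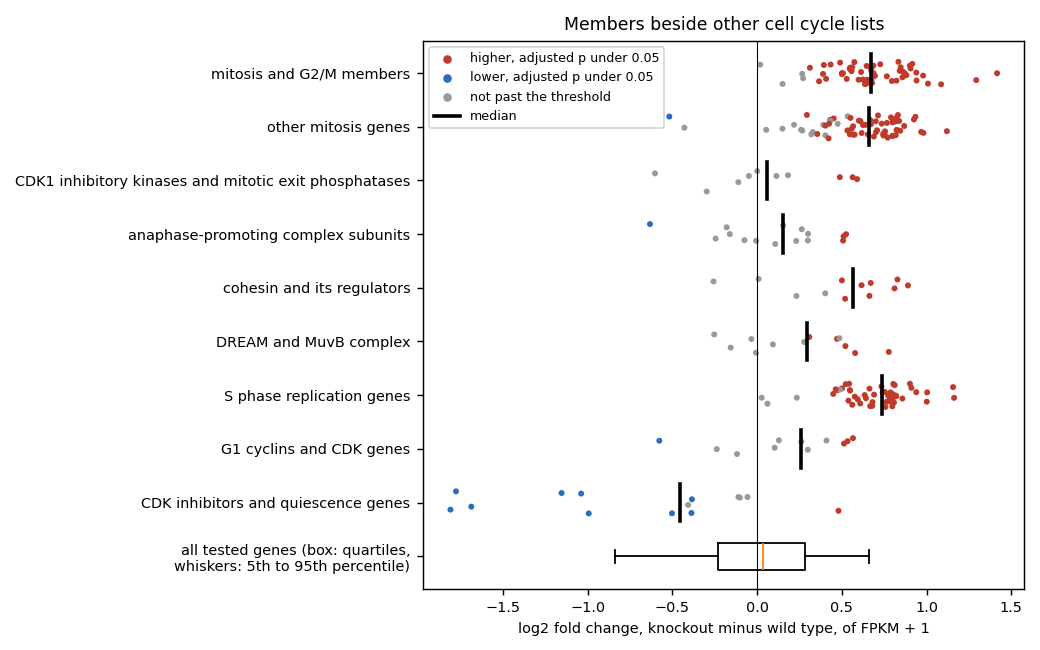
Log2 fold change of FPKM + 1, knockout minus wild type, for the 55 mitotic genes and for each gene of 8 other cell cycle lists; points are genes, coloured by call, black bars are list medians and the box is all tested genes. The medians of the mitotic, other mitosis and S phase lists lie at 0.67, 0.66 and 0.74, and that of the CDK inhibitor list at -0.45.

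Markers of other cells were read beside these genes, since bulk RNA holds every cell that was isolated. For scale, 15.4% of all tested genes were higher in the knockout and 13.0% were lower. Of 8 regulatory T cell markers, 5 fell and 0 rose, with summed levels of 530.5 and 550 FPKM in wild-type cells, against 397 and 390.5 FPKM in knockout cells, and Foxp3 at 5.40 and 4.65 FPKM against 0.128 and 0.228 FPKM. Of 6 tested NK and gamma delta T cell markers, 5 fell, with summed levels of 209 and 213 FPKM against 115 and 119 FPKM. Ncr1, too low to be tested, was at 0.0767 and 0.0821 FPKM in wild-type cells and at 0 in both knockout libraries. Summed B and plasma cell markers were at 47.7 and 51.0 FPKM against 99.0 and 90.8 FPKM. Ighm, which rose, supplied most of this. Cd79a, also too low to be tested, was at 0 in both wild-type libraries, against 0.149 and 0.0359 FPKM in knockout cells. Epithelial markers summed to 11.5 and 12.9 FPKM against 2.98 and 3.02 FPKM, with Epcam and Cdh1 lower and Krt8 at 0 in 3 of the 4 libraries. Myeloid, erythroid, fibroblast, endothelial and melanocyte markers summed to between 0.634 and 16.8 FPKM in each library, and Hba-a1 was the only one of these that passed, lower in the knockout. Of 12 T cell markers, 4 rose and 1 fell. The part of these shifts in the mitotic genes was not tested.

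Firmness differed along the set. Of the 51 genes that rose, 19 passed under all 14 alternative settings, among them Mki67, Foxm1, Top2a, Cenpf, Prc1, Tpx2, Espl1 and Ccnb1. Without knockout library 1, 20 of the 55 passed, and without knockout library 2, 26 passed; without a wild-type library 49 or 47 passed. The median log2 fold change stayed between 0.65 and 0.69 in these 4 fits, and over all genes the calls dropped from 3390 to 579 and 945 without knockout library 1 or 2. Scaling the libraries to equal totals raised the median of all tested genes by 0.14, and the mitotic genes then lay 0.65 above it, against 0.64 as reported. Under that scaling 53 of the 55 rose, and 75.3% of all calls were higher in place of 54.2%.

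**Figure D4:**
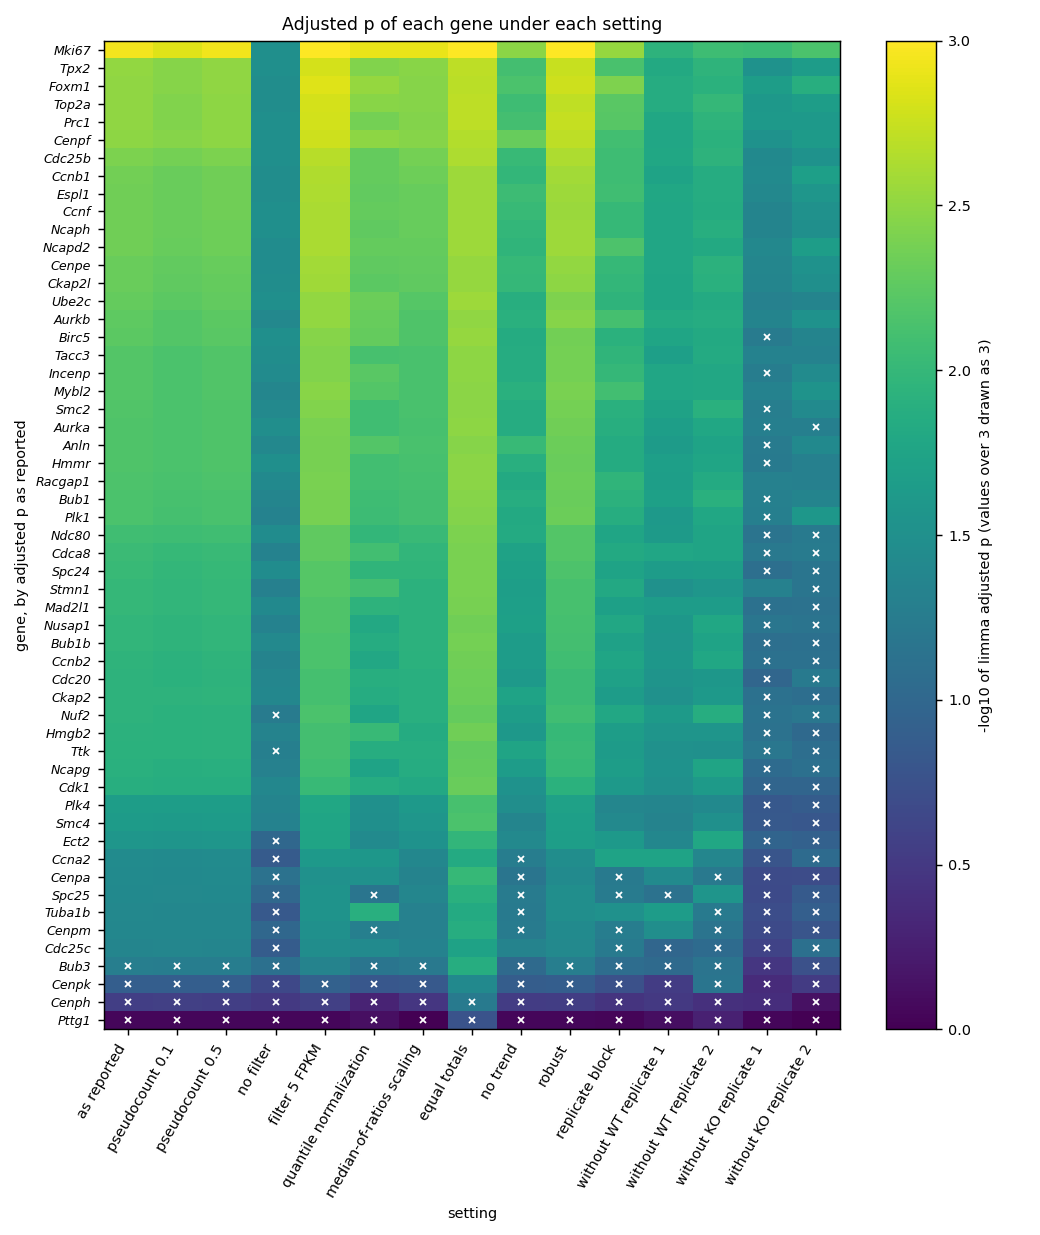
Adjusted p of each of the 55 genes under the reported setting and the 14 alternatives, as -log10, with genes ordered by their reported adjusted p; white crosses mark values at or above 0.05. Crosses gather in the columns without a knockout library, where 20 and 26 genes passed, and in the bottom rows of Bub3, Cenpk, Cenph and Pttg1.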

How the data were processed

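The authors deposited FPKM values, 1 column per library, for 21146 genes, each above 0 in at least 1 library. The submitters' processing notes named HISAT, Cuffnorm and the mouse build GRCm38; tool versions, the annotation, strandedness and library scaling are not given in the sources used here. Symbols and positions came from GENCODE M21 on GRCm38 for 21028 genes. Low values of single-transcript genes of 1000 to 6000 nt lay within 0.1 of a whole fragment in 91.9% to 93.5% of cases, at a fragment length and scale chosen on these same values. Replicate libraries differed by more than counting noise on that approximate scale (chi-square per degree of freedom 8.21 and 4.26), so each was counted as a sample; this does not show that they came from separate mice.

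The test ran on log2(FPKM + 1) over the 11947 genes that reached 1 FPKM in 2 or more libraries. This scale understates the change of low genes. limma 3.58.1 (R 4.3.3), with its trend option, gave two-sided p-values, adjusted over all tested genes by Benjamini-Hochberg at 0.05. Residual degrees of freedom were 2 and prior degrees of freedom 3.39. In fits with 1 library fewer, the spread came from the other genotype's pair alone, which the lone library was taken to share.

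The 55 genes and the other lists were chosen with earlier results of these data known. All 55 passed the filter. Genes given by library are those that did not pass, the 3 highest and 3 lowest changes, the most abundant and the lowest adjusted p of each role, and 10 fixed by name; other members were added to complete each role, after their values were seen. Of each other list, up to 4 genes with the lowest p were named. Psrc1 and Cdkn2c were named after their values were seen as the only gene in their direction. Tob1, Klf2, Foxo1 and Foxo3 were also named after their values were seen, as the genes of their list that did not pass. Promoter sequences came from RefSeq on GRCm38.p6. Tables and plots used Python 3.11.15, pandas 2.3.3 and matplotlib 3.10.9.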

Additional observations from a re-analysis of the deposited data

How the results depend on the processing

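Each result was recomputed under 14 alternatives. With no filter on low values, 1231 genes in all and 81 genes of the other cell cycle lists passed, against 3390 and 135. Scaling to equal totals moved the median log2 fold change of the 55 genes to 0.83. With 1 library left out, 20 to 49 of the 55 genes passed, 579 to 3235 of all genes and 39 to 131 genes of the other lists, and the median was 0.65 to 0.69. The count of the 55 genes that fell was 0 under every alternative. Pttg1 alone changed direction, to -0.044 under quantile normalization and -0.0011 under median-of-ratios scaling, and it ran from -0.036 to 0.073 with 1 library left out, below 0 without wild-type library 1 and (-0.0061) without knockout library 2. The cause was not tested. With the replicate number as a block, 47 of the 55 genes and 2801 of all genes passed; the labels share only a number across genotypes, and deviations of same-numbered libraries had a correlation of -0.03. Under the other settings 42 to 53 of the 55 genes passed. With 2 libraries a genotype, differences of the size of Cenph could not be told from the spread.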

Other observations

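Replicate libraries were close for most of the 55 genes. The coefficient of variation between libraries had a median of 4.65% in wild type and 3.03% in the knockout. It was over 10% for 6 genes in wild type and for 1, Cdc25c, in the knockout.

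Some of these genes overlap a transcribed gene on the other strand. For 7 of the 55, GENCODE M21 places an opposite-strand gene at 5 FPKM or more across part of the locus. Cdc20 overlaps Elovl1, a fatty acid elongase gene, over 53 bases, and Elovl1 was at 76.6 and 79.5 FPKM in wild-type cells, against 107 and 104 FPKM in knockout cells. Ccna2 overlaps Exosc9, an RNA exosome gene, over 863 bases, and Exosc9 was at 24.8 and 25.6 FPKM against 29.7 and 33.8 FPKM. Prc1 overlaps the annotated span of Rccd1 over 21810 bases, and Rccd1 was at 6.56 and 9.25 FPKM against 8.81 and 8.19 FPKM. The strand setting was not given in the sources used here, so reads of such pairs cannot be told apart where they overlap.

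The 55 genes lie on 16 chromosomes, with 11 of them on chromosome 2. No test of their positions was made.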
